A study of Mus musculus with 4 samples.

Results

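Among the immune cells of a malignant pleural effusion, a minority of the monocytes and macrophages were dividing when they were collected. They were picked here by their own transcripts, and 375 of the 13578 cells in the study that passed quality control met the rule. The effusions were grown in C57BL/6 mice from Lewis lung carcinoma (LLC), a mouse lung carcinoma line. On day 11 each group of 3 mice received an injection into the pleural cavity. The injection held 1 µg of LNP-cGAMP, 30 µg of the anti-PD-L1 antibody 10F.9G2, both agents together (the combination), or PBS as the control. LNP-cGAMP is a nanoparticle that carries cGAMP, the cyclic dinucleotide that activates STING, and STING switches on type I interferon genes. PD-L1 is a ligand on myeloid and tumour cells that restrains T cells, and the antibody blocks it. Pleural fluid was drawn on day 13, red blood cells were lysed, cells of the 3 mice of a group were pooled in equal ratio, and 1 single-cell RNA library was made of each pool. Age, sex and genotype of the mice are not given in the labels. Each treatment is therefore 1 library of pooled mice, no difference between treatments has a replicate check, and no test was run on any value below.

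Tissue macrophages differ from most differentiated cells in that they can divide. In body cavities such as the pleura, resident macrophages keep up their number by local division under the growth factor CSF1, whose receptor is Csf1r. Monocytes that arrive from the blood carry Ccr2 and Ly6c2 and turn into macrophages in the tissue. Mki67 (chromosome 7, 135689784 to 135716361, GRCm38) encodes Ki-67, a protein on chromosomes of dividing cells. Top2a (chromosome 11, 98992943 to 99024189) encodes the topoisomerase that untangles DNA before mitosis. Both are transcribed mostly in the later cell cycle. A cell counted as cycling with at least 5 unique molecular identifiers (UMIs, 1 per captured RNA molecule) of Mki67 and Top2a together, at least 2 UMIs of Csf1r, at least 20 UMIs of Lyz2 per 10000, and at most 1 UMI of Cd3d, Cd3e and Cd3g. Lyz2 encodes the lysozyme of myeloid cells, and the Cd3 genes encode parts of the T cell receptor complex. The rule found 3 cells in the LNP-cGAMP library, 154 in anti-PD-L1, 93 in the combination and 125 in PBS. Their comparators are the Csf1r cells with no UMI of Mki67 or Top2a, called non-cycling, of which there were 1699, 1455, 1845 and 1123 in the same libraries. With 3 cells, the LNP-cGAMP values describe those cells only, and summaries over gene lists use the other 3 libraries.

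The libraries held 68828158 to 88855120 UMIs and 2821 to 3830 cells each. The cycling cells were deeper than the others. Their median was 61141 UMIs per cell in LNP-cGAMP, 62192 in anti-PD-L1, 55164 in combination and 63582 in PBS, against 21226, 26737, 21465 and 29395 in non-cycling cells. A minimum stated in UMIs is met more easily by deep cells, so results are given also against non-cycling cells of like depth, those within the 10th to 90th percentile of the cycling cells' UMIs in the same library. The cell barcodes of any pair of libraries overlapped by 8 to 19, and 6 cycling cells carried a shared one (2 in anti-PD-L1, 3 in combination, 1 in PBS). Doublets were not removed.

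The macrophage label was checked against markers. Of the 12 genes of the monocyte and macrophage list 4 belong to the rule (Mki67, Top2a, Csf1r and Lyz2) and check nothing. The other 8 all had UMIs in the cycling cells of every library. Levels are in CPM, counts per 1000000 UMIs of the summed cells. C1qa, a chain of complement C1q made by macrophages, had 3989 CPM in LNP-cGAMP, 3464 in anti-PD-L1, 3987 in combination and 3935 in PBS cycling cells, against 3097, 3024, 3487 and 3636 in their non-cycling cells. Adgre1, which encodes the macrophage marker F4/80, had 208 CPM in LNP-cGAMP, 214 in anti-PD-L1, 221 in combination and 179.5 in PBS cycling cells, against 297, 215, 310.1 and 189 in their non-cycling cells. Csf1r, which the rule requires at 2 UMIs, had 101 CPM in LNP-cGAMP, 214 in anti-PD-L1, 242 in combination and 279.5 in PBS cycling cells. C1qa and Adgre1, which the rule does not use, thus had UMIs in both classes of cells in all 4 libraries. Markers of other lineages were near 0 for some lists and not for others. The T cell list, whose Cd3 genes the rule limits, summed to 30.4, 3.11, 5.61 and 2.03 CPM, the mast cell and basophil list was at 0 in all 4 libraries, and B cell, eosinophil and fibroblast lists stayed at or below 3.74 CPM. The tumour cell list summed to 223, 152, 202 and 123 CPM, nearly all of it Thbs1, a matrix protein that macrophages also make. Without Thbs1 the remaining 12 tumour genes summed to 0, 4.56, 5.98 and 3.80 CPM. The neutrophil precursor list, at 1632, 999.8, 881 and 547 CPM, was led by Chil3 and Prtn3, and Chil3 is also a macrophage gene. The neutrophil list summed to 1085, 457, 548 and 232 CPM and was led by Lcn2 in LNP-cGAMP and by S100a8 in the other 3. The plasmacytoid dendritic cell list summed to 613, 425, 405 and 401 CPM, led by Bst2, an interferon-induced gene, and to at most 45.3 CPM without it. The conventional dendritic cell list summed to 81.1, 131, 165 and 109.8 CPM, nearly all of it Clec10a, and to at most 2.59 CPM without it. The NK cell list summed to 15.2, 32.7, 11.6 and 12.4 CPM, and the erythroid list to 0, 122, 6.17 and 38.6 CPM, in anti-PD-L1 mostly from 1 cell. The part of these cell types in the results was not tested.

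Cycling cells made up 8.81% of the Lyz2-limited Csf1r cells in anti-PD-L1 (154 of 1748, 95% Clopper-Pearson interval 7.52 to 10.2%), 6.99% in combination (93 of 1330, 5.68 to 8.50%) and 8.53% in PBS (125 of 1465, 7.15 to 10.1%). In LNP-cGAMP they were 3 of 631, or 0.475% (0.0982 to 1.38%). The interval of the LNP-cGAMP library does not overlap those of the other 3, whose intervals all overlap each other. All intervals cover counting error within a library only, not the spread between mice. These shares come from the rule itself and are a description.

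The Lyz2 limit kept a different portion of Csf1r cells in each library, 34.3% in LNP-cGAMP, 87.7% in anti-PD-L1, 57.7% in combination and 90.5% in PBS. Without that limit, an alternative chosen after seeing the data, the cycling share was 0.219% in LNP-cGAMP (4 of 1826, 0.0597 to 0.560%), 8.65% in anti-PD-L1 (172 of 1988, 7.45 to 9.97%), 5.48% in combination (126 of 2299, 4.59 to 6.49%) and 8.60% in PBS (139 of 1617, 7.28 to 10.1%). The combination then lay below anti-PD-L1 and PBS with intervals that do not overlap theirs. When every cell was thinned to 10000 UMIs and the minimum set at 2, the shares were 0.831% in LNP-cGAMP (5 of 602, 0.270 to 1.93%), 6.84% in anti-PD-L1 (116 of 1695), 6.61% in combination (85 of 1285) and 7.66% in PBS (109 of 1423). With a minimum of 1 on the thinned cells they were 5.15% (31 of 602), 14.7% (249 of 1695), 13.7% (176 of 1285) and 16.2% (231 of 1423) in the same libraries. The LNP-cGAMP library was the lowest in each of these counts, by less at the minimum of 1.

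Dividing cells of another kind were captured in the LNP-cGAMP library. Of the cells with Cd3 transcripts and no Csf1r, 97 of 214 (45.3%) had at least 5 UMIs of Mki67 and Top2a in LNP-cGAMP, 27 of 126 (21.4%) in anti-PD-L1, 59 of 151 (39.1%) in combination and 7 of 72 (9.72%) in PBS. Free RNA from dividing cells can put stray UMIs into other droplets. The near-empty droplets carried Mki67 and Top2a at 118 CPM in LNP-cGAMP, 78.7 in anti-PD-L1, 55.6 in combination and 56.4 in PBS. Neutrophils do not divide once mature. Among S100a8 and S100a9 cells with no Csf1r, 1.18% (LNP-cGAMP), 1.40% (anti-PD-L1), 2.42% (combination) and 1.67% (PBS) had any UMI of both genes together, at medians of 2421, 2287, 2482 and 2117 UMIs per cell. Cells with at least 5 numbered 1 of 851, 0 of 785, 0 of 495 and 0 of 718 in the same order. These cells are far shallower than the cycling cells, so their counts say little about stray UMIs at the depth of the cycling cells.

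**Figure D1:**
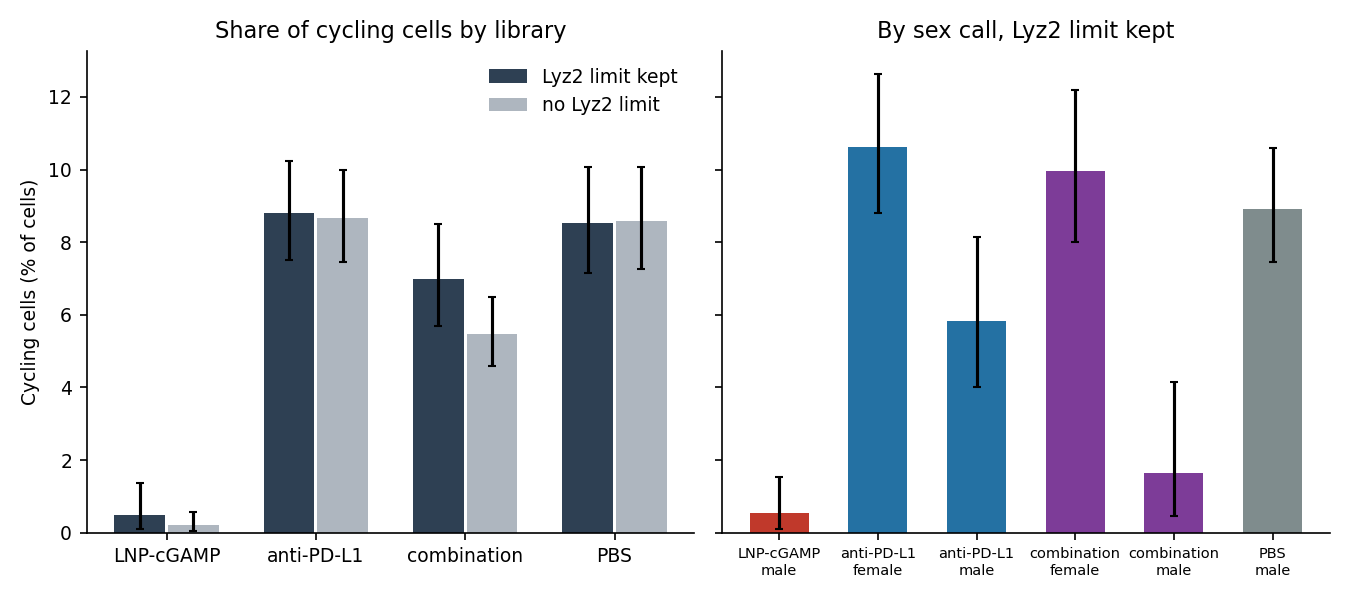
Share of cycling cells among Csf1r cells in percent, with exact 95% Clopper-Pearson intervals as bars. One panel gives each library with and without the Lyz2 limit, and the other splits the cells of each library by sex call. The LNP-cGAMP bar is at 0.475%, whereas the other 3 libraries lie between 6.99% and 8.81%.

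Cells of both sexes were present in 2 of the pools, and sex is not given in the labels. Each cell was called from Xist, the RNA of the inactive X chromosome, and from 4 Y-linked genes. Cycling cells of LNP-cGAMP (3 of 3) and PBS (118 of 118 called) were all male-called. In anti-PD-L1 111 of the 143 called cycling cells were female (77.6%, 69.9 to 84.2%), against 66.3% (63.7 to 68.9%) of its non-cycling cells. In combination 83 of 87 were female (95.4%, 88.6 to 98.7%), against 74.6% (72.3 to 76.9%) of its non-cycling cells. Among non-cycling cells of like depth the female shares were 64.4% in anti-PD-L1 and 87.7% in combination. Within the anti-PD-L1 pool, 10.6% of female-called cells within the other limits were cycling (111 of 1046, 8.81 to 12.6%), against 5.83% of male-called cells (32 of 549, 4.02 to 8.13%). Within the combination pool the shares were 9.95% of female-called (83 of 834, 8.005 to 12.2%) and 1.64% of male-called cells (4 of 244, 0.448 to 4.14%). Male-called cells of PBS were at 8.93% (118 of 1322, 7.44 to 10.6%) and those of LNP-cGAMP at 0.532% (3 of 564, 0.110 to 1.55%). In both mixed pools the share was higher in female-called than in male-called cells. Median depths differed, at 33763.5 (female-called) and 35780 UMIs (male-called) in anti-PD-L1, 28420.5 and 20087.5 in combination, and 37502.5 in male-called PBS cells. Within the depth range of the cycling cells the shares were 20.2% (16.5 to 24.4%) of female-called and 11.8% (7.95 to 16.8%) of male-called anti-PD-L1 cells. In the combination they were 19.8% (66 of 334, 15.6 to 24.4%) of female-called and 8.82% (3 of 34, 1.86 to 23.7%) of male-called cells, and in PBS 13.3% (10.9 to 15.9%) of male-called cells. At that depth the intervals of female-called and male-called cells overlap in each pool, and those of male-called combination and PBS cells overlap too. A pool holds 3 mice, so sex, mouse and treatment cannot be told apart. Cells with both marks, which a doublet of a female and a male cell would carry, were 9 of 154 (5.84%) in anti-PD-L1 and 5 of 93 (5.38%) in combination, against 2.68% and 3.58% of their non-cycling cells and 3.45% and 9.49% of those of like depth.

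At the edge of the rule, the 59 cells with 4 UMIs of Mki67 and Top2a fell outside and the 33 cells with 5 inside. Their medians were 51059 UMIs for 4 and 47391 UMIs for 5. Birc5, which encodes survivin of the chromosomal passenger complex, had 101 CPM in cells with 4 and 149 in cells with 5, against 309 in the 277 cells with 10 or more. Ube2c had 62.5, 111 and 446 CPM in these sets, and Rrm2 had 29.7, 35.6 and 225 CPM. In these 3 genes the cells just inside and just outside differed less from each other than from the cells with 10 or more, although Ube2c differed by over 1.5-fold between 4 and 5. Of the cycling cells, 112 of 154 in anti-PD-L1 (72.7%), 67 of 93 in combination, 95 of 125 in PBS and 3 of 3 in LNP-cGAMP had 10 or more.

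Set against non-cycling cells, the cycling cells had higher levels of most measured genes of DNA replication and mitosis. All values are on the log2 of (CPM + 10) scale, and a gene is called at a 1.5-fold difference on it. Over all 3849 genes with enough counts, 8.89% were higher and 3.53% lower in cycling cells in anti-PD-L1, 10.5% and 7.51% in combination, and 8.55% and 2.47% in PBS. In the 3 LNP-cGAMP cells, where counting noise is large, the shares were 16.9% and 18.9%. The rule selects on this contrast, so the counts below describe the cells and support nothing further.

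Replication genes were higher in cycling cells. All 27 measured members (of 37) of the replication licensing and fork list were called higher in anti-PD-L1, combination and PBS, with list medians of 1.69, 1.66 and 1.70, against 0.00, -0.04 and 0.01 over all genes. Mcm5, a subunit of the helicase loaded at origins, had 76.0 CPM in LNP-cGAMP, 135 in anti-PD-L1, 133 in combination and 139 in PBS cycling cells, against 4.16, 15.7, 8.72 and 14.4 in their non-cycling cells. Pcna, the sliding clamp of DNA polymerase, had 137 CPM in LNP-cGAMP, 179 in anti-PD-L1, 159.7 in combination and 179 in PBS cycling cells, against 45.3, 51.1, 43.8 and 52.0 in their non-cycling cells. In both genes the lowest cycling value of the 4 libraries lay above the highest non-cycling one. 2810417H13Rik, which encodes the PCNA-associated factor PCLAF, led the ranking of all genes. It had 314 CPM in LNP-cGAMP, 311 in anti-PD-L1, 292 in combination and 321 in PBS cycling cells, against 1.65, 4.27, 3.56 and 2.91 in their non-cycling cells. All 9 measured genes of nucleotide supply were called higher in the 3 libraries too, with medians of 2.52, 2.69 and 2.62. Rrm2, the regulated subunit of ribonucleotide reductase, had 117 CPM in LNP-cGAMP, 203 in anti-PD-L1, 165 in combination and 184 in PBS cycling cells, against 1.27, 2.15, 2.39 and 2.60 in their non-cycling cells. Tk1, thymidine kinase, had 96.3 CPM in LNP-cGAMP, 101 in anti-PD-L1, 103 in combination and 96.7 in PBS cycling cells, against 0.568, 0.983, 1.46 and 1.06 in their non-cycling cells.

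Mitotic lists had higher medians than the replication licensing and fork list, and medians near or below those of nucleotide supply. The 25 measured genes of the mitotic spindle and cytokinesis list were all called higher in these 3 libraries, with medians of 2.53, 2.56 and 2.60. Stmn1, which destabilises microtubules, had 902 CPM in LNP-cGAMP, 530.0 in anti-PD-L1, 531 in combination and 529 in PBS cycling cells, against 7.05, 25.6, 17.1 and 18.5 in their non-cycling cells. Of the 17 kinetochore and spindle checkpoint genes 15 were called higher in all 3, with list medians of 2.16, 2.30 and 2.23. Birc5 had 359.9 CPM in LNP-cGAMP, 281 in anti-PD-L1, 256 in combination and 277 in PBS cycling cells, against 1.78, 4.75, 4.59 and 4.08 in their non-cycling cells. Cenpa, the histone H3 variant of centromeres, had 279 CPM in LNP-cGAMP, 184 in anti-PD-L1, 206 in combination and 196 in PBS cycling cells, against 5.40, 7.77, 8.83 and 8.89 in their non-cycling cells. Among the 10 genes of mitotic exit, Ube2c, the E2 enzyme that feeds the anaphase-promoting complex, had 765 CPM in LNP-cGAMP, 327 in anti-PD-L1, 399.8 in combination and 394 in PBS cycling cells, against 2.07, 5.49, 5.41 and 4.50 in their non-cycling cells. Mitotic exit medians were 2.17, 1.99 and 2.27. The cycling and non-cycling sums of Stmn1, Birc5, Cenpa and Ube2c did not overlap.

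Cyclins differed by the phase they serve. Of 17 measured cyclin and kinase genes, 13 were called higher in all 3 libraries, with medians of 2.08, 2.39 and 2.26. Ccna2 (cyclin A2, of S and G2 phase) had 213 CPM in LNP-cGAMP, 137 in anti-PD-L1, 135 in combination and 154 in PBS cycling cells, against 1.34, 0.617, 1.44 and 1.34 in their non-cycling cells. Ccnb1 (cyclin B1, of mitosis) had 106 CPM in LNP-cGAMP, 111 in anti-PD-L1, 124 in combination and 145 in PBS cycling cells, against 0.775, 1.42, 1.502 and 1.96 in their non-cycling cells. Cdk1, their kinase, had 314 CPM in LNP-cGAMP, 161 in anti-PD-L1, 182 in combination and 189 in PBS cycling cells, against 1.34, 3.93, 3.20 and 4.31 in their non-cycling cells. Ccne1 (cyclin E1, of the entry into S phase) had 25.3 CPM in LNP-cGAMP, 52.1 in anti-PD-L1, 50.5 in combination and 48.2 in PBS cycling cells, against 1.91, 5.23, 3.31 and 4.19 in their non-cycling cells. The D cyclins, which respond to growth factors, differed less. Ccnd1 had 193 CPM in anti-PD-L1, 194 in combination and 198 in PBS cycling cells, against 142, 83.1 and 111 in their non-cycling cells and 214, 190.1 and 139 in those of like depth, so the difference from cells of like depth was -0.14, 0.03 and 0.48 on the log2 scale. Ccnd2 had 28.5 CPM in anti-PD-L1, 21.3 in combination and 25.8 in PBS cycling cells, against 53.5, 57.4 and 40.2 in their non-cycling cells, and was called lower in anti-PD-L1 and combination. Ccnd3 had 258 CPM in anti-PD-L1, 233 in combination and 220.0 in PBS cycling cells, against 219, 193 and 172 in their non-cycling cells, under the 1.5-fold limit in each.

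Transcription factors and brakes of the cycle were mixed. E2f1, an activator of S phase genes, had 58.7 CPM in anti-PD-L1, 47.3 in combination and 52.9 in PBS cycling cells, against 15.0, 15.1 and 14.5 in their non-cycling cells. Foxm1, an activator of mitotic genes, had 29.1 CPM in anti-PD-L1, 32.9 in combination and 30.1 in PBS cycling cells, against 0.571, 0.508 and 0.252 in their non-cycling cells. Myc did not pass the count limit, with 22.8 CPM in anti-PD-L1, 19.8 in combination and 32.0 in PBS cycling cells. Of 10 measured brakes, 2 were called higher and 2 lower in all 3 libraries, against 7.12% and 1.87% of all genes. Cdkn2c, which encodes the CDK4/6 inhibitor p18, was higher at 42.1 CPM in anti-PD-L1, 49.7 in combination and 52.2 in PBS cycling cells, against 2.77, 3.78 and 2.60 in their non-cycling cells. Cdkn2d, the related p19 inhibitor, had 142 CPM in anti-PD-L1, 131 in combination and 137 in PBS cycling cells, against 77.8, 74.0 and 67.5 in their non-cycling cells. Btg1 and Btg2, antiproliferative factors of resting cells, were lower. Btg1 had 90.1 CPM in anti-PD-L1, 106 in combination and 98.1 in PBS cycling cells, against 199.5, 199 and 195 in their non-cycling cells. In cells of like depth Btg1 was at 105, 118 and 106 CPM, and the log2 difference then was -0.20, -0.14 and -0.10. Cdkn1a, the p53 target p21, had 507 CPM in LNP-cGAMP, 184 in anti-PD-L1, 151 in combination and 174 in PBS cycling cells, against 441, 153, 297 and 157 in their non-cycling cells, so it was lower in combination and not elsewhere. In cells of like depth Cdkn1a was at 142, 183 and 140.2 CPM in the 3 libraries.

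**Figure D2:**
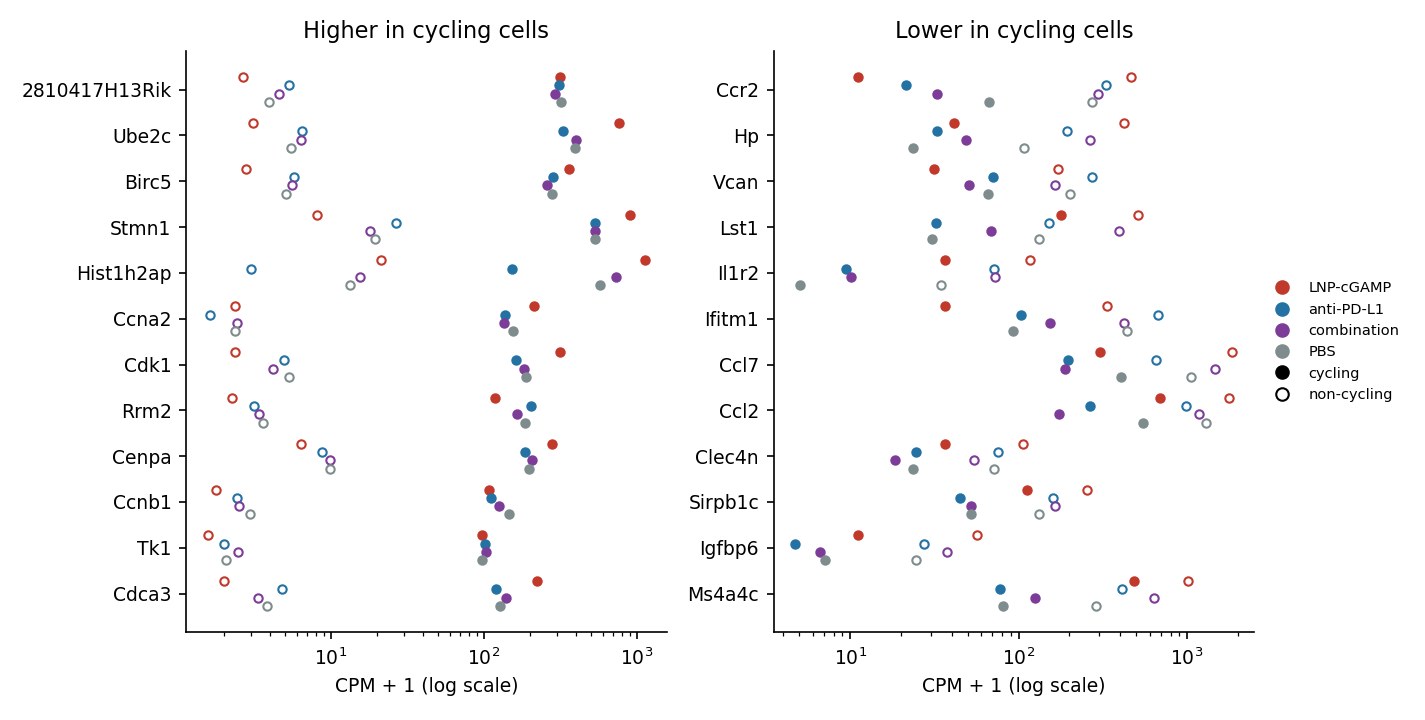
Level in CPM + 1 on a log axis of the 12 genes highest and the 12 lowest in cycling against non-cycling cells, ranked over the 4 libraries. Filled points are sums of cycling cells and open points sums of non-cycling cells, 1 colour per library. The filled and open points of the higher genes are separate in every library, as in Ube2c at 327 CPM in anti-PD-L1 cycling cells against 5.49 in non-cycling ones.

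The upstream sequences of the leading genes are shown since cell cycle genes are known to share promoter elements. S phase genes are bound by E2F factors, and genes of G2 and mitosis carry a cell cycle homology region (CHR) and CCAAT boxes, bound by the MuvB and NF-Y complexes. RefSeq promoters of GRCm38.p6 matched 9 of the 12 highest named genes. In the 250 bases before the start site the letters CCAAT, on either strand, were found in 7 of these 9, against 33.85% of 32851 mouse promoters. The CHR letters TTTGAA were found in 2 of 9, against 15.99%. The E2F letters TTTCGCGC or TTTGGCGC were found in 1 of 9, against 0.6545%. Below are the 150 bases before the start, 5′ to 3′ in the direction of transcription, for the top-ranked gene and for 3 regulators of mitosis. Capitals mark these motifs on either strand (CCAAT reads ATTGG and TTTGAA reads TTCAAA on the other).
Pclaf promoter, chr9:65890173-65890322, plus strand: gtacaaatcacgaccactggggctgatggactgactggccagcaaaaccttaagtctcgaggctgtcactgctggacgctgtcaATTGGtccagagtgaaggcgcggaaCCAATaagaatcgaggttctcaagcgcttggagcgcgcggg
Ube2c promoter, chr2:164769779-164769928, plus strand: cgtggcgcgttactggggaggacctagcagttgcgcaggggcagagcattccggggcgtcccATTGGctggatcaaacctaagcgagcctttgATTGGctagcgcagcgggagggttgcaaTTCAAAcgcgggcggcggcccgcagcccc
Cdk1 promoter, chr10:69352913-69353062, minus strand: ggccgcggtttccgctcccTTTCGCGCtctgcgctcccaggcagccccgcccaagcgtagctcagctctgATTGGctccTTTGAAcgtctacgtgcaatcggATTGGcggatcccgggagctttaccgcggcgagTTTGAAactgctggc
Ccnb1 promoter, chr13:100786487-100786636, minus strand: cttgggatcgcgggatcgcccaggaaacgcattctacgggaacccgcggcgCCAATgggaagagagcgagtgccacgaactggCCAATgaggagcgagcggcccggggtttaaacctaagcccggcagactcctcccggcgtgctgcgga
The CCAAT nearest to the start lay 41 bases upstream in Pclaf, 57 in Ube2c, 48 in Cdk1 and 67 in Ccnb1. The CHR letters lay nearer, 29 bases upstream in Ube2c and 15 in Cdk1, and the E2F letters of Cdk1 131 bases upstream. A match of letters is a description and not a bound site.

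Genes of S phase and of G2 and mitosis were both higher in cycling cells. The 54 S phase genes summed to 2879 CPM in LNP-cGAMP, 3790 in anti-PD-L1, 3444 in combination and 3760 in PBS cycling cells, against 615, 818, 666 and 819 CPM in non-cycling cells. The 71 genes of G2 and mitosis summed to 11690 CPM in LNP-cGAMP, 8625 in anti-PD-L1, 8453 in combination and 9401 in PBS cycling cells, against 1539, 2108, 1690 and 2154 CPM in non-cycling cells. The ratio of the S sum to the other was 0.246, 0.439, 0.407 and 0.400 in cycling cells and 0.400, 0.388, 0.394 and 0.380 in non-cycling cells, so outside LNP-cGAMP it was close in both classes. Together all cycle lists took 2.70%, 2.28%, 2.29% and 2.43% of cycling cells' UMIs, against 0.850%, 0.910%, 0.827% and 0.882% in non-cycling cells. Cells with more S than G2 and mitosis UMIs were 0 of 3 in LNP-cGAMP, 13 of 154 in anti-PD-L1 (8.44%, 4.57 to 14.0%), 17 of 93 in combination (18.3%, 11.0 to 27.6%) and 21 of 125 in PBS (16.8%, 10.7 to 24.5%). These intervals overlap, so no order between libraries is read from them. Hist1h2ap, a replication-dependent H2A gene, had 1130.4 CPM in LNP-cGAMP, 151 in anti-PD-L1, 736 in combination and 571 in PBS cycling cells, against 20.4, 1.99, 14.5 and 12.3 in their non-cycling cells. The anti-PD-L1 library was low in Hist1h2ap in both classes of cells.

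Against all non-cycling cells, 274 genes (7.12% of those measured) were higher and 72 (1.87%) lower in all 3 of anti-PD-L1, combination and PBS. The higher and the lower side behaved differently when depth was matched. Of the 274 higher genes 224 (81.8%) were also higher against cells of like depth, where 242 genes (6.29%) were called. Of the 72 lower genes 8 (11.1%) were also lower against cells of like depth, where 11 (0.286%) were called. Library by library, 7.4% of genes were higher and 0.961% lower at like depth in anti-PD-L1, 7.82% and 2.1% in combination, and 8.16% and 0.883% in PBS. With the LNP-cGAMP cells included, 243 genes (6.31%) were higher and 64 (1.66%) lower in all 4 libraries. Among the 274 were 117 of the 134 measured cycle-list genes and 157 genes outside the lists. Those outside the lists included Knstrn and Cit, which act at the spindle and in cytokinesis, Atad2, a chromatin cofactor, and Dbf4, the activator of the replication kinase CDC7.

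Genes of recruited monocytes were lower in cycling cells than in all non-cycling cells. Of 15 such genes 8, 7 and 6 were called lower and 0, 1 and 0 higher in anti-PD-L1, combination and PBS, with medians of -0.59, -0.48 and -0.47. The shares over all genes were 3.53%, 7.51% and 2.47% lower and 8.89%, 10.5% and 8.55% higher. Against cells of like depth the medians were -0.09, -0.17 and -0.09. Ccr2, the receptor that draws monocytes out of the marrow and blood, had 10.1 CPM in LNP-cGAMP, 20.4 in anti-PD-L1, 32.0 in combination and 66.1 in PBS cycling cells, against 462, 329, 296 and 273 in their non-cycling cells. Its cycling sums lay below all non-cycling ones. Non-cycling cells of like depth had 30.6, 55.0 and 39.2 CPM of Ccr2 in anti-PD-L1, combination and PBS, which leaves differences of -0.42, -0.63 and 0.63 on the log2 scale. Hp, haptoglobin, had 40.6 CPM in LNP-cGAMP, 31.9 in anti-PD-L1, 48.1 in combination and 22.5 in PBS cycling cells, against 419, 193, 263 and 107 in their non-cycling cells, and 31.6, 74.2 and 28.3 CPM in the 3 sets of like depth. Vcan, the proteoglycan versican of young monocytes, had 69.0 CPM in anti-PD-L1, 49.6 in combination and 64.6 in PBS cycling cells, against 271, 163 and 201 in their non-cycling cells and 106, 85.5 and 91.4 CPM at like depth. Ly6c2 had 699.5 CPM in LNP-cGAMP, 134 in anti-PD-L1, 265 in combination and 43.8 in PBS cycling cells, against 1278, 404, 899 and 104 in their non-cycling cells. At like depth Ly6c2 was at 171, 421 and 44.6 CPM in anti-PD-L1, combination and PBS. Depth therefore moved with most of the monocyte difference: the shallow Csf1r cells were the ones rich in Ccr2, and its part in the result was not tested.

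Ccl7 and Ccl2, chemokines that attract monocytes, were lower in cycling cells under both comparators. Of 16 chemokines 5, 12 and 9 were called lower and 1, 0 and 0 higher in anti-PD-L1, combination and PBS, against 3.53%, 7.51% and 2.47% of all genes lower. The chemokine medians were -0.46, -0.97 and -0.75, and -0.38, -0.61 and -0.62 at like depth. Ccl7, a ligand of Ccr2, had 304 CPM in LNP-cGAMP, 195 in anti-PD-L1, 189 in combination and 406 in PBS cycling cells, against 1860.0, 654, 1471 and 1049.7 in their non-cycling cells. Non-cycling cells of like depth had 645, 617 and 1019.5 CPM of Ccl7 in the 3 libraries. Ccl2, the main ligand of Ccr2, had 689 CPM in LNP-cGAMP, 263 in anti-PD-L1, 172 in combination and 547 in PBS cycling cells, against 1788, 987, 1176 and 1296 in their non-cycling cells. At like depth Ccl2 had 643, 600.0 and 1035 CPM. Both genes were thus called lower under either comparator in each of the 3 libraries. Ccl12, another Ccr2 ligand, had 168 CPM in anti-PD-L1, 130.0 in combination and 305 in PBS cycling cells, against 414, 851 and 520.3 in their non-cycling cells and 315, 326 and 393 CPM at like depth. Cxcl10 went the other way, with 182 CPM in anti-PD-L1, 133 in combination and 81.9 in PBS cycling cells, against 94.5, 86.4 and 66.7 in their non-cycling cells, though 1 cell held 45.8% of its UMIs in combination and 40.6% in PBS. The other genes lower under both comparators in the 3 libraries were Slfn5, Il4ra, Slc15a3, C3ar1, Lst1 and Fam214b. Il4ra, the receptor chain for interleukin-4 that drives macrophage division in helminth infection of mice, had 147 CPM in LNP-cGAMP, 115 in anti-PD-L1, 107 in combination and 117 in PBS cycling cells, against 329, 251, 322 and 230.2 in their non-cycling cells, and 199, 200.4 and 197 CPM at like depth. C3ar1, the receptor for complement fragment C3a, had 359.9 CPM in LNP-cGAMP, 216 in anti-PD-L1, 194 in combination and 277 in PBS cycling cells, against 533, 354, 444 and 445 in their non-cycling cells, and 371, 379 and 457 CPM at like depth.

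Genes of resident cavity macrophages leaned to the cycling cells. Of 12 measured, 7, 5 and 6 were called higher and 0, 1 and 2 lower in anti-PD-L1, combination and PBS, with medians of 0.73, 0.36 and 0.37. The shares over all genes were 8.89%, 10.5% and 8.55% higher and 3.53%, 7.51% and 2.47% lower. At like depth the medians were 0.24, -0.26 and -0.09, so in combination and PBS the sign turned. Lyve1, a hyaluronan receptor on resident macrophages, had 213 CPM in LNP-cGAMP, 557 in anti-PD-L1, 529 in combination and 444 in PBS cycling cells, against 33.1, 338, 243 and 408 in their non-cycling cells. Cells of like depth had 570.3, 614 and 578 CPM of Lyve1 in anti-PD-L1, combination and PBS, above the cycling level. Icam2, an adhesion molecule of cavity macrophages, was higher under both comparators. It had 133 CPM in anti-PD-L1, 143 in combination and 91.4 in PBS cycling cells, against 49.7, 37.6 and 34.1 in their non-cycling cells and 72.8, 72.1 and 42.5 CPM at like depth. Cd5l, a secreted survival factor of macrophages, had 502 CPM in anti-PD-L1, 635 in combination and 447 in PBS cycling cells, against 187, 207 and 286 in their non-cycling cells and 309, 449.5 and 392.1 CPM at like depth. Fcna, ficolin A, had 359 CPM in anti-PD-L1, 438 in combination and 314 in PBS cycling cells, against 131, 103 and 182 in their non-cycling cells and 221, 256 and 242 CPM at like depth. For these 3 genes each cycling sum lay above both comparators of its library. Cd163, a haemoglobin scavenger receptor, did not share this, with 159.6 CPM in anti-PD-L1, 119 in combination and 189.7 in PBS cycling cells, against 161, 101 and 297 in their non-cycling cells.

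**Figure D3:**
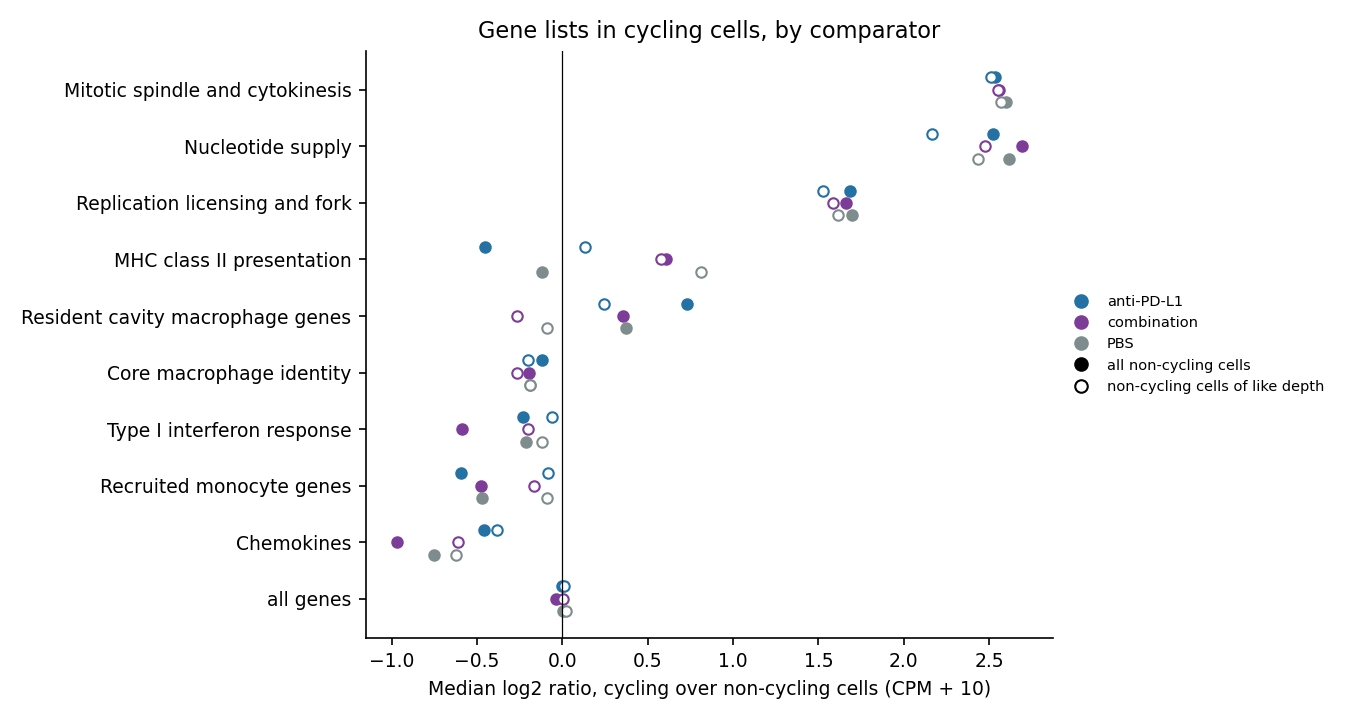
Median log2 ratio of cycling over non-cycling cells for gene lists in the anti-PD-L1, combination and PBS libraries. Filled points use all non-cycling cells and open points those of like depth. The replication and mitosis lists lie far to the right of 0 under either comparator, with mitotic spindle medians of 2.53 to 2.60 against all non-cycling cells, whereas the recruited monocyte list is at -0.59 in anti-PD-L1 against all non-cycling cells and at -0.09 against those of like depth.

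Cells were then sorted by whether they held a UMI of Lyve1 or Ccr2 after thinning to 10000 UMIs, which puts all cells at equal depth for these genes. Of cells with Lyve1 and no Ccr2, 2 of 32 in LNP-cGAMP (6.25%, 0.766 to 20.8%), 100 of 589 in anti-PD-L1 (16.98%, 14.0 to 20.3%), 61 of 342 in combination (17.8%, 13.9 to 22.3%) and 69 of 574 in PBS (12.02%, 9.47 to 15.0%) were cycling. The LNP-cGAMP interval here overlaps that of every other library. Of cells with Ccr2 and no Lyve1, 0 of 468 in LNP-cGAMP (3 counts, the floor used for a count of 0, would be a share of 0.641%), 6 of 695 in anti-PD-L1 (0.863%), 5 of 614 in combination (0.814%) and 19 of 466 in PBS (4.08%, 2.47 to 6.29%) were. The cycling cells thus lay mostly among Lyve1 cells in each library, and the Ccr2 cells of PBS held more of them than those of the treated libraries. Cells with both had 0 of 13, 11 of 110 (10.0%), 2 of 97 (2.06%) and 5 of 123 (4.07%) cycling in LNP-cGAMP, anti-PD-L1, combination and PBS. Cells with neither had 1 of 89, 37 of 301 (12.3%), 25 of 232 (10.8%) and 32 of 260 (12.3%). The Lyve1 cells had medians of 39999.5 to 51219 UMIs before thinning and the Ccr2 cells 18895.5 to 20734, and the cycling call itself was not thinned here, so the part of depth in this split was not tested. The thinned share of cells with a Lyve1 UMI was 68.2% of cycling cells in anti-PD-L1, 65.6% in combination and 60.0% in PBS, against 34.03%, 26.5% and 41.9% of non-cycling cells. For Ccr2 it was 7.79%, 17.2% and 20.8% of cycling cells, against 57.3%, 63.9% and 51.6% of non-cycling cells. These shares came from a separate random thinning, and the draws differ. Here 7 of 154, 7 of 93 and 8 of 125 cycling cells held both genes, against 11, 2 and 5 in the split above. No order of anti-PD-L1 and combination is therefore read from the Ccr2 shares of cycling cells.

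The core macrophage genes that were called were all lower in cycling cells. Of 19 core identity genes 0, 0 and 0 were called higher and 4, 4 and 1 lower in anti-PD-L1, combination and PBS. Of all genes 3.53%, 7.51% and 2.47% were lower in the same libraries. The core list had medians of -0.12, -0.20 and -0.19. Fcgr1, the high-affinity receptor for IgG, had 299.9 CPM in anti-PD-L1, 269 in combination and 361 in PBS cycling cells, against 685, 806 and 606 in their non-cycling cells and 469, 455 and 459 CPM at like depth. Maf, a transcription factor of macrophages, had 252 CPM in anti-PD-L1, 236 in combination and 274 in PBS cycling cells, against 389.9, 447 and 379.7 in their non-cycling cells and 345, 362 and 333 CPM at like depth. At like depth Fcgr1 was still called lower in anti-PD-L1 and combination, and Maf in combination. Csf1 was near 0, with at most 2.28 CPM in these cycling cells. Bhlhe40, a factor that cavity macrophages of mice need to divide, had 72.9 CPM in anti-PD-L1, 65.6 in combination and 71.3 in PBS cycling cells, against 41.9, 27.6 and 48.2 in their non-cycling cells and 61.0, 55.9 and 60.3 CPM at like depth. Arg1, arginase 1, had 3346 CPM in LNP-cGAMP, 3977 in anti-PD-L1, 3858 in combination and 4196 in PBS cycling cells, against 1673, 3966, 3022 and 4524 in their non-cycling cells. Il1b, an inflammatory cytokine, had 7.05 CPM in anti-PD-L1, 5.42 in combination and 7.98 in PBS cycling cells, against 74.5, 25.6 and 86.2 in their non-cycling cells and 13.6, 8.19 and 12.01 CPM at like depth. Glycolysis and ribosome biogenesis lists had medians of 0.00, 0.16 and 0.08 and of 0.12, 0.23 and 0.18, with few or no members called.

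Interferon genes leaned lower in cycling than in non-cycling cells. Of 35 type I interferon response genes 7, 18 and 5 were called lower and 0, 0 and 0 higher in anti-PD-L1, combination and PBS, against 3.53%, 7.51% and 2.47% of all genes lower. The list medians were -0.23, -0.59 and -0.22, and -0.06, -0.20 and -0.12 at like depth. Isg15, a ubiquitin-like protein induced by interferon, had 294 CPM in LNP-cGAMP, 191 in anti-PD-L1, 150.2 in combination and 118 in PBS cycling cells, against 786, 347, 467 and 224 in their non-cycling cells, and 197, 220.1 and 138 CPM in the 3 sets of like depth. Irf7, the factor that amplifies interferon production, had 618 CPM in LNP-cGAMP, 255 in anti-PD-L1, 295 in combination and 179 in PBS cycling cells, against 1155, 402, 692 and 266 in their non-cycling cells, and 316, 457 and 233 CPM at like depth. The cycling sums of both genes lay below the non-cycling ones of their library, by less where depth was matched. MHC class II genes, which present antigen to CD4+ T cells, had medians of -0.45, 0.61 and -0.12 in anti-PD-L1, combination and PBS, and of 0.13, 0.58 and 0.81 at like depth. Cd74, the invariant chain of MHC class II, had 1546 CPM in LNP-cGAMP, 1929.9 in anti-PD-L1, 2402 in combination and 1898 in PBS cycling cells, against 856, 3129, 1609 and 2334 in their non-cycling cells, and 1939, 1715 and 1143 CPM at like depth. H2-Aa, a chain of the class II molecule itself, had 537 CPM in LNP-cGAMP, 625 in anti-PD-L1, 817 in combination and 653 in PBS cycling cells, against 215, 869, 457 and 714 in their non-cycling cells, and 548, 488 and 337 CPM at like depth. In PBS the cycling cells thus lay below all non-cycling cells and above those of like depth in H2-Aa. Mitochondrially encoded genes had medians of 0.05, 0.66 and 0.02. Median mt- shares were 3.32% of UMIs in anti-PD-L1, 3.40% in combination and 3.23% in PBS cycling cells, against 3.14%, 1.92% and 3.26% in non-cycling cells.

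The 3 cycling cells of the LNP-cGAMP library are described one by one, because a sum of 3 cells cannot stand for a library. They had 56859, 61141 and 79271 UMIs, with 17, 10 and 22 UMIs of Mki67 and 36, 10 and 64 of Top2a, above the minimum of 5. Each also held 1 UMI of a Cd3 gene, the most the rule allows. Lyz2 was at 232, 356 and 207 UMIs, Csf1r at 5, 7 and 8 and C1qa at 252, 129 and 406. Saa3, an acute-phase protein, had 1464, 1346 and 231 UMIs, and Ccl5, an interferon-induced chemokine for T cells, had 186, 299 and 21. Lyve1 had 0, 7 and 35 UMIs, Ccr2 had 0, 0 and 2 and Ly6c2 had 1, 108 and 29. The cells thus differed among themselves: the third was the richest in Lyve1 and C1qa and the poorest in Saa3 and Ccl5. Summed, Saa3 reached 15415 CPM in LNP-cGAMP, against 455 in PBS cycling cells, and Ccl5 2565, against 7.09 CPM. In non-cycling cells Saa3 was at 5958 (LNP-cGAMP) and 362 CPM (PBS), and Ccl5 at 632 (LNP-cGAMP) and 12.1 CPM (PBS). By the 1.5-fold rule 15.2% of all genes were higher in these cells than in PBS cycling cells and 17.1% lower, which for 3 cells includes the noise of small counts.

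With anti-PD-L1 the cycling cells had more Lcn2, Serpina3g, Alox15 and Slpi and less Hist1h2ap and Apoe than those of PBS. Of all genes 1.77% were higher and 0.805% lower, and in non-cycling cells 1.74% and 0.935%. Hist1h2ap, low in both classes of anti-PD-L1 cells, had a log2 difference of -1.85 in cycling cells. The mitotic spindle median was -0.15 against -0.02 over all genes. Interferon gamma response genes had a median of 0.43, with 4 of 16 called higher and 0 lower, against 0.50 in non-cycling cells. Type I interferon genes had 0.33 in cycling (5 of 35 higher) and 0.33 in non-cycling cells. Gbp5, a guanylate-binding protein induced by interferon gamma, had 149 CPM in anti-PD-L1 and 79.0 in PBS cycling cells. Cd274, which encodes PD-L1, had 162 CPM in anti-PD-L1 and 112 in PBS cycling cells, a log2 difference of 0.49 that misses the 1.5-fold rule. Resident cavity genes had a median of 0.25 in cycling cells (4 of 12 higher) but -0.36 in non-cycling cells. In male-called cells alone the cycling median was -0.73, the opposite sign. The difference between the classes was not tested.

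The genes named for anti-PD-L1 mostly also differed between the cells of its pool by sex call. Lcn2, lipocalin 2, a member of the neutrophil list, had 127 CPM in anti-PD-L1 and 3.80 in PBS cycling cells, 33.4-fold (23.2 to 49.7) higher. Its UMIs lay in 51 of 154 anti-PD-L1 and 13 of 125 PBS cycling cells, and 1 cell held 16.2% and 50% of them. The interval does not cover this spread between cells. By sex call Lcn2 had 171 CPM in female-called and 5.70 in male-called anti-PD-L1 cells, 90.6 in female-called combination cells and 3.94 in male-called PBS cells, and the intervals of the male-called anti-PD-L1 (2.84 to 10.2 CPM) and PBS cells (2.66 to 5.62 CPM) overlap. Serpina3g, a serine protease inhibitor of activated immune cells, had 126 and 18.4 CPM in anti-PD-L1 and PBS cycling cells. Non-cycling cells of these libraries had 57.6 and 10.0 CPM of Serpina3g and 78.6 and 20.4 CPM of Lcn2. AW112010, an interferon-induced transcript, had 1605 CPM in anti-PD-L1 and 598 in PBS cycling cells, 2.69-fold (2.60 to 2.78) higher. Slpi, an inhibitor of neutrophil elastase, was 2.91-fold (2.82 to 3.01) higher in anti-PD-L1, at 1657 CPM against 569. Split by sex call, Slpi had 2245 CPM in female-called and 32.6 in male-called anti-PD-L1 cells. Female-called combination cells had 1193 CPM and male-called PBS cells 589.8. In non-cycling cells of anti-PD-L1 and PBS, Slpi had 753 and 272 CPM and AW112010 had 1231 and 344 CPM. Alox15, a lipoxygenase of cavity macrophages, had 421 CPM in anti-PD-L1 and 114 in PBS cycling cells, against 186 and 35.1 in their non-cycling cells. By sex call Alox15 had 573 CPM in female-called and 4.14 in male-called anti-PD-L1 cells, 168 in female-called combination cells and 118 in male-called PBS cells. Ptgis, prostacyclin synthase, had 76.5 CPM in female-called and 0 in male-called anti-PD-L1 cells, against 8.93 in male-called PBS cells. For Slpi, Alox15 and Ptgis the male-called cells of the pool lay below PBS and only the female-called above it, so in this pool these 3 differences turn with the sex call. For Lcn2 the difference was in the female-called cells of this pool. The combination pool ran the other way in Slpi, Alox15 and Lcn2. Its 4 male-called cells had 6400, 701 and 1014 CPM, against 1193, 168 and 90.6 in its female-called cells. For Ptgis they had 24.6 and 18.8 CPM, with overlapping intervals. For Serpina3g and AW112010 both kinds of cell lay above PBS: AW112010 had 1670.2 CPM in female-called and 1318 in male-called anti-PD-L1 cells, 1928 in female-called combination cells and 600.2 in male-called PBS cells, and Serpina3g had 137 CPM in female-called and 77.7 in male-called anti-PD-L1 cells, 71.8 in female-called combination cells and 18.9 in male-called PBS cells.

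Apoe, the lipid carrier apolipoprotein E, was lower in each treated library than in PBS, in cycling and in non-cycling cells. It had 1359 CPM in LNP-cGAMP, 771 in anti-PD-L1, 582 in combination and 2325 in PBS cycling cells, against 2192, 1581, 1353 and 3121 in their non-cycling cells. Relative to PBS it was 3.02-fold (2.93 to 3.10) lower in anti-PD-L1 and 4.00-fold (3.85 to 4.15) lower in combination cycling cells. By sex call Apoe had 407 CPM in female-called and 1870.1 in male-called anti-PD-L1 cells, 587 in female-called combination cells and 2332 in male-called PBS cells. The male-called anti-PD-L1 cells were thus nearer to PBS and the female-called ones far below. Its per-cell median was 3.60 UMIs per 10000 in anti-PD-L1, 2.86 in combination and 17.8 in PBS, and no cell held more than 8.87% of its UMIs. Ccr2 was 3.24-fold (2.74 to 3.83) lower in anti-PD-L1 than in PBS cycling cells, at 20.4 against 66.1 CPM, whereas non-cycling cells had 329 and 273 CPM.

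**Figure D4:**
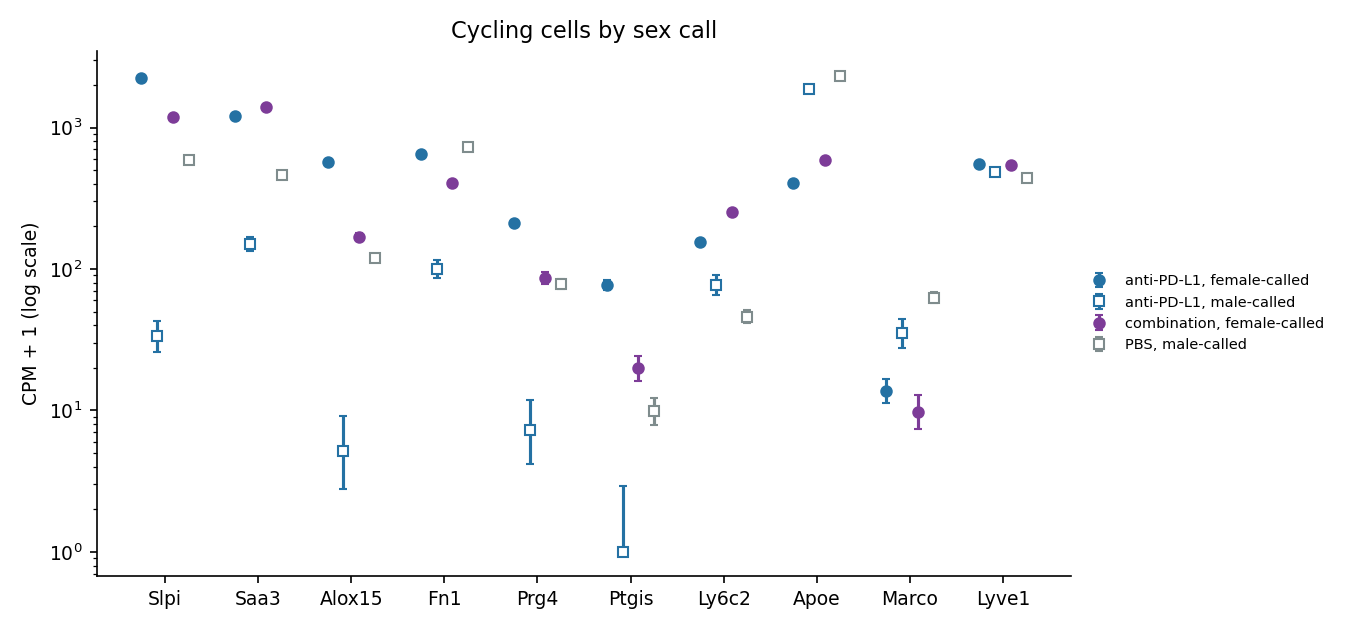
Level in CPM + 1 on a log axis of 10 genes in cycling cells, by library and sex call, with exact 95% Poisson intervals for counting error. Slpi is at 2245 CPM in female-called and 32.6 in male-called anti-PD-L1 cells, with male-called PBS cells at 589.8, and Apoe runs in the opposite direction.

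With the combination 2.05% of genes were higher and 1.43% lower than in PBS cycling cells, and 4.13% and 2.08% in non-cycling cells. Both comparisons with PBS use the same PBS library. Type I interferon genes had a median of 0.27 in cycling cells (6 of 35 higher, 0 lower) and 0.58 in non-cycling cells (17 higher). Irf7 had 295 CPM in combination and 179 in PBS cycling cells, against 692 and 266 in non-cycling cells of the same libraries. Isg15 had 150.2 and 118 CPM in combination and PBS cycling cells, against 467 and 224 in non-cycling cells. MHC class II genes had a median of 0.33 in cycling and -0.54 in non-cycling cells. Mitochondrially encoded genes had 0.03 in cycling cells with none called, and -0.62 in non-cycling cells with 7 of 10 called lower. The non-cycling cells carry no Lyz2 or Cd3 limit, unlike the cycling cells. Within those limits were 1015 of the 1845 in combination and 1012 of the 1123 in PBS. Median mt- shares of non-cycling cells were 1.92% in combination and 3.26% in PBS, and 2.44% and 3.27% within the limits. These differences between the classes, and the part of the limits in them, were not tested.

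Lcn2, Ccl5, Ly6c2 and Saa3 were the genes furthest above PBS in combination cycling cells. Saa3, an acute-phase protein, had 1694 CPM in combination and 455 in PBS cycling cells, 3.73-fold (3.58 to 3.87) higher, with per-cell medians of 4.34 and 0.581 UMIs per 10000. In non-cycling cells Saa3 was at 5566 CPM in combination and 362 in PBS. In anti-PD-L1 cycling cells Saa3 had 966 CPM, with 1212 in female-called and 150 in male-called cells. Female-called combination cycling cells had 1399 CPM and male-called PBS cycling cells 464. Lcn2 had 114 CPM in combination and 3.80 in PBS cycling cells, against 130 and 20.4 in their non-cycling cells. A single cell held 25.9% of the Lcn2 UMIs of cycling cells in combination and 50% in PBS. C3, the central complement protein, had 82.3 and 22.4 CPM in these cycling cells, against 100 and 30.7 in the non-cycling ones. Ly6c2 had 265 CPM in combination and 43.8 in PBS cycling cells, 6.05-fold (5.38 to 6.83) higher. Non-cycling cells of these libraries had 899 and 104 CPM of Ly6c2. Ccl5 had 138 CPM in combination, 5.49 in anti-PD-L1 and 7.09 in PBS cycling cells. A single combination cell held 35.5% of the Ccl5 UMIs, and without it the level was 89.7 CPM. In non-cycling cells Ccl5 had 249 CPM in combination, 12.8 in anti-PD-L1 and 12.1 in PBS. S100a9 is a calprotectin chain most abundant in neutrophils. It had 121 CPM in combination and 40.4 in PBS cycling cells, against 217 and 169 in their non-cycling cells. The neutrophil list in whole summed to 548 CPM in combination and 232 in PBS, and its part in these values was not tested.

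Among lower genes, Ccl2 had 172 CPM in combination and 547 in PBS cycling cells, 3.18-fold (2.96 to 3.42) lower, while non-cycling cells had 1176 and 1296 CPM. Ch25h, which makes 25-hydroxycholesterol, had 19.3 and 62.3 CPM in combination and PBS cycling cells. Emp1, a membrane protein, had 64.7 and 185 CPM in combination and PBS cycling cells. Marco, a scavenger receptor, had 7.85 CPM in combination, 96.4 in anti-PD-L1 and 59.5 in PBS cycling cells. Marco rested on single cells: 1 cell held 73.8% of its UMIs in combination, 70.1% in anti-PD-L1 and 60.6% in PBS. Without these cells Marco was at 2.07, 29.0 and 23.6 CPM. Of the combination's cycling cells 4 were male-called, too few for values by sex call to be read against PBS. Those 4 had 10605 CPM of Saa3 and 381 of Ccr2, far from the female-called cells of the pool at 1399 and 22.2.

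**Figure D5:**
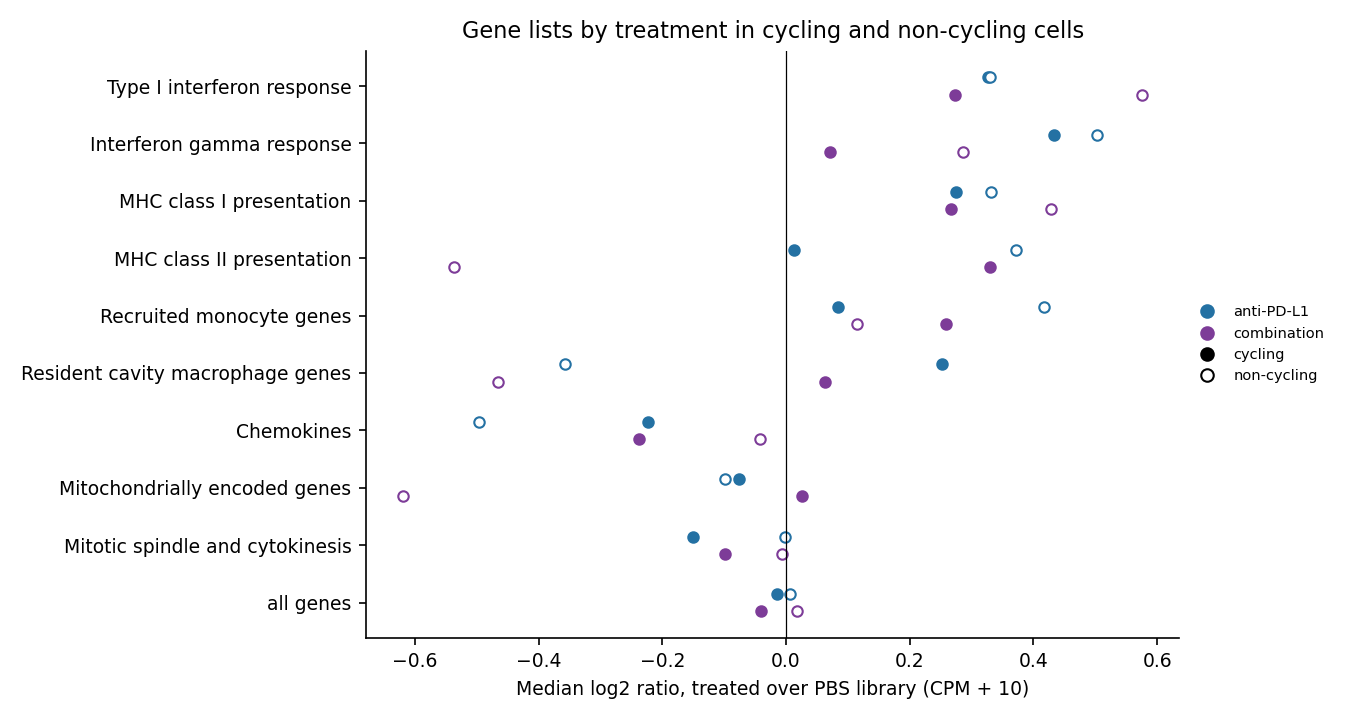
Median log2 ratio of the anti-PD-L1 and combination libraries over PBS for gene lists, with filled points for cycling and open points for non-cycling cells. The non-cycling cells carry no Lyz2 or Cd3 limit. Type I interferon in the combination is at 0.27 in cycling and 0.58 in non-cycling cells, and MHC class II at 0.33 and -0.54.

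Against anti-PD-L1 alone, the combination adds LNP-cGAMP. Of all genes 0.701% were higher and 0.753% lower in combination than in anti-PD-L1 cycling cells, fewer than in either comparison with PBS. Type I interferon genes had a median of -0.06 in cycling and 0.25 in non-cycling cells. Interferon gamma response genes had -0.32 in cycling and -0.28 in non-cycling cells, and Gbp2, their most abundant member, had 785 CPM in combination and 1483 in anti-PD-L1 cycling cells. MHC class II genes had 0.35 in cycling and -0.84 in non-cycling cells. The non-cycling cells again carry no Lyz2 or Cd3 limit, which 1015 of 1845 met in combination and 1259 of 1455 in anti-PD-L1. Alox15 had 172 and 421 CPM in combination and anti-PD-L1 cycling cells. Hist1h2ap and Pgk1 were higher in combination, and both were also higher in its non-cycling cells: Pgk1, phosphoglycerate kinase of glycolysis, had 75.7 and 23.1 CPM in cycling and 63.1 and 22.4 CPM in non-cycling cells of combination and anti-PD-L1. Against the 3 LNP-cGAMP cells 13.4% of genes were higher and 13.7% lower. Saa3 there had 1694 CPM in combination and 15415 in LNP-cGAMP, and Alox15 had 172 CPM in combination and no UMI in LNP-cGAMP.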

How the data were processed

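Single-cell 3' RNA libraries (10x Genomics Chromium) of pleural fluid cells were analysed, 1 per treatment, each a pool of 3 mice with 4000 cells loaded, per the labels. The deposited values are raw UMI counts. The file headers name Cell Ranger 3.0.2, and the submitters' processing notes name mm10. No normalization had been applied. The labels name both version 2 and version 3 of the reagent kit, and which was used was not settled. Counts cover 27998 genes, and 65 symbols carry more than 1 ID.

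Barcodes with at least 1000 UMIs, 200 genes and at most 10% mt- UMIs were kept. Doublets were not removed. No per-cell value was modelled: counts were summed per library and class and divided by the sum's total (CPM). Genes with at least 50 CPM in 1 of the 8 sums and 20 UMIs in all entered, which left 3849 besides the genes of the rule. Log2 ratios take CPM + 10, which lowers the ratios of scarce genes, and folds are plain CPM ratios. Intervals are exact 95% Poisson, conditional binomial or Clopper-Pearson intervals and cover counting error only. A count of 0 is read against 3 counts. Totals of 68828158 to 88855120 UMIs per library set the precision, and the 3 LNP-cGAMP cells limit it most.

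Named genes are the 12 highest and 12 lowest in cycling against non-cycling cells over the 4 libraries, the 8 highest and 6 lowest of each treatment comparison, and of each list the 3 most abundant members and its extremes, with a fixed panel of 22 genes. Other genes were named after their values were seen. Values of some genes under this rule are not reported here. The members, the rule and the gene lists were chosen with earlier results of these data known. Neighbouring settings were tried for the minimum of Mki67 and Top2a, the Lyz2 limit and the UMIs per cell. They were also tried for the mt- share, the pseudocount and the CPM minimum. The Csf1r minimum, the Cd3 maximum and the gene minimum per cell were not varied. Nor were the UMI minimum of the sums and the 1.5-fold limit, so the dependence of the results on these limits was not tested. The log2 ratios, the 1.5-fold calls and the fold intervals were tested on simulated sums. Python 3.11.15, numpy 2.4.6, scipy 1.17.1, pandas 2.3.3 and matplotlib 3.10.9 were used.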

Additional observations from a re-analysis of the deposited data

Results flagged for a closer look

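In 5 genes the treatment difference had one sign in cycling and the other in non-cycling cells, each past 1.5-fold, and none of these differences between classes was tested. In the anti-PD-L1 library against PBS, Hbb-bs, a globin gene of red cells, had a log2 ratio of 1.20 in cycling and -1.32 in non-cycling cells. Hba-a1, the other globin, had 1.12 in cycling and -0.96 in non-cycling cells. A single anti-PD-L1 cell held 96.5% of the Hbb-bs and 97.5% of the Hba-a1 UMIs of the cycling cells, and without it Hbb-bs was at 2.30 CPM.

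In the combination against PBS, Spp1, which encodes osteopontin, had -0.85 in cycling and 1.77 in non-cycling cells. Ccl12, a ligand of Ccr2, had -1.17 in cycling and 0.70 in non-cycling cells. Ms4a7, a membrane protein of macrophages, had -0.77 in cycling and 0.88 in non-cycling cells. Within the same Lyz2 and Cd3 limits the non-cycling values were 1.31 for Spp1, 0.30 for Ccl12 and 0.40 for Ms4a7, so the last 2 then fall short of 1.5-fold. Each library is 1 pool, and the female share of these cycling cells was 95.4% in the combination, against 0% in PBS.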

How the results depend on the processing

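Each setting that was varied was changed alone, except that thinning also set the minimum of Mki67 and Top2a for the shares at 2. Of the shares, list medians and counts, 673 values stayed near the reported value and 56 moved. Among medians past 1.5-fold 0 changed sign, but smaller medians did, as given below. Of the named genes' ratios, 1298 stayed, 210 moved and 8 reversed. No paired analysis was possible because each treatment is 1 library and no test was run.

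Cycling shares were 11.0% in anti-PD-L1, 9.02% in combination and 11.4% in PBS with a minimum of 3 UMIs of Mki67 and Top2a. With a minimum of 10 they were 6.41%, 5.04% and 6.48%. Thinning with a minimum of 2 gave 6.84% in anti-PD-L1. In combination the share was 8.66% with Lyz2 at 50 per 10000, 3.99% of all Csf1r cells and 5.48% without the Lyz2 limit, which was chosen after seeing the data. In another setting, cells with over 3 UMIs of the tumour cell, NK cell, B cell or neutrophil precursor list were left out. Other marker lists were not used for it. Leaving out these cells brought the share to 0% (LNP-cGAMP), 7.30% (anti-PD-L1) and 0.939% (combination). It left 10 cycling cells in anti-PD-L1, 22 in PBS and 2 in combination, whose treatment ratios were then not computed. In that setting the resident list in anti-PD-L1 cycling cells had a median of 0.10, and anti-PD-L1 against PBS gave 195 higher and 234 lower genes. With lists freed of Thbs1, Chil3 and Prtn3, chosen after seeing the data, no value moved.

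Against cells of like depth, MHC class II medians were 0.13 in anti-PD-L1 and 0.81 in PBS, and the resident median was -0.26 in combination, each of opposite sign to the reported -0.45, -0.12 and 0.36. Lower genes then numbered 3 over 4 libraries and 11 over 3. Hp in anti-PD-L1 (0.012) and Ccr2 in PBS (0.63) reversed. Without the LNP-cGAMP library, chosen after seeing the data, 274 genes were higher and 72 lower. With each cell weighted equally 104 and 116 genes were lower over 4 and 3 libraries, and thinned sums gave 109 over 3.

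A pseudocount of 1 CPM gave mitotic medians of 4.39, 4.47 and 4.71 in anti-PD-L1, combination and PBS and a replication median of 2.38 in combination. It gave 125 higher genes for the combination against PBS and 45 against anti-PD-L1. A pseudocount of 50 gave mitotic medians of 1.10, 1.19 and 1.14 and replication medians of 0.90, 0.81 and 0.82. Higher genes were then 152 and 176 and lower ones 30 and 35 over 4 and 3 libraries. Treatment counts were then 29 higher and 16 lower (anti-PD-L1 against PBS), 31 and 20 (combination against PBS) and 13 and 10 (combination against anti-PD-L1). With no CPM minimum 431 and 518 genes were higher, and 83 were lower in combination against PBS. Thinned sums gave 53 lower genes for anti-PD-L1 against PBS, 123 higher and 122 lower for the combination against PBS, and 48 and 55 against anti-PD-L1.

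In male-called cells alone (32 in anti-PD-L1, 118 in PBS) the resident median of anti-PD-L1 against PBS was -0.73, against 0.25 in all cells, with 81 genes lower. Ptgis (-0.92), Alox15 (-3.18) and Slpi (-3.82) reversed. The combination, with 4 male-called cells, was not computed. Without the Lyz2 limit Igfbp6 in PBS (0.071), Hspb1 in combination against PBS (0.60) and Ptgis in combination against anti-PD-L1 (0.36) reversed. Apart from pseudocounts, minima and cell sets as named, the cause was not tested.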
